A study of Homo sapiens with 17 samples.

Results

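The 10 genes described here are those that encode 5 matrix metalloproteinases (MMP1, MMP2, MMP3, MMP10 and MMP14), 3 tissue inhibitors of metalloproteinases (TIMP1, TIMP2 and TIMP3) and 2 relatives of the MMPs, the secreted ADAMTS1 and the membrane protease ADAM17. They were taken by symbol from a table of 9699 transcripts, 1 a gene, that gives an RNA level and a level of ribosome-protected fragments for human fibroblasts under 5 conditions. All 10 were found. MMP1 was the most abundant of all 9699 transcripts in cells 5 days after RAS induction, in RNA and in ribosome-protected fragments alike. MMP3 was 22.6-fold higher in RNA in senescent cells than in the proliferating cells of the same sequencer run, while TIMP1 was 2.98-fold lower. The proliferating cells of the 2 runs themselves differed 9.20-fold in MMP3 and 5.30-fold in TIMP1, so that TIMP1 was higher, not lower, in senescence when set against the other control. MMP3 in senescence was higher against both controls, but its direction in quiescence and in the cells labelled transformed depended on the control.

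MMPs are zinc endopeptidases that cleave the proteins of the extracellular matrix. Most are secreted as inactive pro-enzymes whose pro-peptide has to be removed, a few are anchored in the membrane, and TIMPs bind the active site of the mature enzyme and block it. Fibroblasts are a main source of these enzymes in connective tissue, and secreted MMPs are among the proteins that senescent fibroblasts are known to release.

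The cells were BJ fibroblasts, a human foreskin line immortalized with hTERT, the catalytic subunit of telomerase, which all groups shared. Proliferating cells were grown under normal conditions, and quiescent cells were depleted of serum. Pre-senescent and fully senescent cells carried a tamoxifen-inducible RASG12V, an active oncogene, and were taken 5 and 14 days after 4-OHT-tamoxifen was added. Transformed cells carried stable knockdowns, that of p16INK4A among them, and the SV40 small T antigen, and received RASG12V from a retrovirus. The series holds 9 RNA-Seq and 8 Ribo-Seq samples, and the deposited table has 6 columns for each assay. In run 1, 1 column each stands for proliferation (2 samples), quiescence (2 samples) and pre-senescence (2 RNA samples, 1 Ribo-Seq sample). In run 2, proliferation, senescence and the transformed state have 1 sample each. Values are FPKM, fragments per kilobase of mRNA scaled to the number of reads, with every value under 1 set to 1. The table holds FPKM without read counts and the study's library totals were not used here, so no counting error is given for any value. With 1 column a condition no test between conditions was possible, and no p-value or standard deviation is given. A change of at least 2-fold was called, and the only measure of spread is the difference between the 2 proliferating columns, whose RNA libraries also had different read layouts. All samples are bulk, so that fewer cells of a kind and less RNA in each cell cannot be told apart.

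Labels and data were compared before any change was read. The Ribo-Seq samples titled as senescent and as the run 2 control carry each other's condition in the submitters' condition field. They were used by title. Over 9699 transcripts the senescent Ribo-Seq column correlated with the senescent RNA column at r = 0.897 and with the run 2 control at 0.780 (Pearson, log2, a description across genes), and the control Ribo-Seq column gave 0.875 with control RNA and 0.796 with senescent RNA. MKI67, a marker of cycling cells, was at the floor in senescence in both assays and at 44.0 (RNA) and 43.0 (Ribo-Seq) in the run 2 control. In both checks each of these Ribo-Seq columns was closer to the RNA column of its title than to the other. HRAS RNA was listed at 2415 and 1284 in the proliferating columns of runs 1 and 2, at 2102 and 2087 in pre-senescence and senescence and at 312 in the column labelled transformed. Its level did not follow the labels of RAS induction. Whether 4-OHT-tamoxifen acts on the RNA or the protein of the construct is not in the labels, so these RNA levels cannot check induction. The labels do not say whether the proliferating and quiescent cells held the inducible construct. CDKN2A RNA was 12.6 in the column labelled transformed, above the run 2 control (6.75) and below the run 1 control (17.2), and its Ribo-Seq level was 5.51 there, below both controls (8.92 and 13). This gene also encodes a product other than p16INK4A, and the row does not separate them. All 10 fibroblast markers were in the table, with summed RNA between 5249 and 7515. VIM alone gave 2956 to 4881 of this, so the sum does not describe each marker. COL1A1 was 51.6 in senescence and 1328 in the run 2 control. DCN was 3.68 in pre-senescence and 27.6 in the run 1 control. Of the epithelial list 1 of 6 genes was present (KRT19, at the floor in run 1 proliferation and at 39.8 in run 2), of the endothelial list 0 of 4, and of the leukocyte list 2 of 5 (CD14 and CD68, summed RNA 39.3 to 133).

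MMP10, MMP1 and MMP3 lie side by side in this order on chromosome 11, within a run of MMP genes, and the other members are on chromosomes 2, 14, 16, 17, 21, 22 and X. RefSeq promoter sequences (GRCh38.p14, 250 bases before to 50 after the start) were matched for 5 of the 10 members, MMP10, MMP14, TIMP1, TIMP3 and ADAM17. A pair of them is shown because MMP10 RNA was higher and TIMP1 RNA lower in senescence than in the same-run control, a secreted protease and a secreted inhibitor. Against the run 1 control both were higher, TIMP1 by 0.83 on the log2 scale. The first is chr11:102780579-102780878 on the minus strand, and the second is chrX:47582186-47582485 on the plus strand.
MMP10 promoter: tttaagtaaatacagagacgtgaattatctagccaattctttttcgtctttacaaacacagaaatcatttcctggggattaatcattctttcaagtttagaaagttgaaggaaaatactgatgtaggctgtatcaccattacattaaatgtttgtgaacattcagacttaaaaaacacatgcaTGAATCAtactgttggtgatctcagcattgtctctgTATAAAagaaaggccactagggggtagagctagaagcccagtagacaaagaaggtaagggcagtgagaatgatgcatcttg
TIMP1 promoter: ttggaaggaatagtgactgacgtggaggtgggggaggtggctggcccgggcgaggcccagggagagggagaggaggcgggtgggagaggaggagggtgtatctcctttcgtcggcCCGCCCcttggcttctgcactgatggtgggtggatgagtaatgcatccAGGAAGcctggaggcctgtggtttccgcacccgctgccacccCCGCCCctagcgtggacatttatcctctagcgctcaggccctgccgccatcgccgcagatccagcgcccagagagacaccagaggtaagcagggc
Capitals mark 4 letter patterns searched on both strands. In the MMP10 window they are TGANTCA, starting at base -67, and TATAAA, the TATA box, at base -31. TGANTCA allows any middle base and is looser than the usual site of AP-1 factors, whose middle base is C or G. The match in MMP10 was TGAATCA. In the TIMP1 window they are GGGCGG, a GC box, on the minus strand at bases -135 and -45, and AGGAAG, a core of the sites of ETS factors, at base -87. None of these overlap. Of 35116 RefSeq promoters of the same length, 7.71% hold TGANTCA, 11.5% TATAAA, 45.0% GGGCGG and 33.6% AGGAAG. The windows of MMP14, TIMP3 and ADAM17 hold GGGCGG, and ADAM17 also AGGAAG. These are matches of letters, and no binding was measured. Variants of the patterns were not searched, so a window without a mark can still hold a related site.

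MMP1, the interstitial collagenase that makes the first cut in fibrillar collagen, was the most abundant of the 10 genes in each of the 12 columns except the run 2 control Ribo-Seq, where TIMP3 exceeded it. Its RNA level was 1289 FPKM in run 1 proliferation, 2808 in quiescence and 7186 in pre-senescence, and 796 in run 2 proliferation, 2063 in senescence and 2239 in the column labelled transformed. Its Ribo-Seq level over the same columns was 3158, 5285 and 15123, and 1661, 6582 and 5031. Both proliferating columns were therefore the lowest in both assays, and pre-senescence stood apart at the top, 2.56-fold above the next RNA level against 1.62-fold between the controls. The other 3 conditions followed each other by less than that fold.

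MMP3, or stromelysin-1, cleaves proteoglycans, fibronectin and other matrix proteins and also activates pro-MMP1. In run 1 its RNA level was 399 FPKM in proliferation, 120 in quiescence and 2190 in pre-senescence. In run 2 it was 43.4 in proliferation, 982 in senescence and 201 in the column labelled transformed. The Ribo-Seq levels were 1108, 252 and 4276 in run 1 and 178, 4462 and 686 in run 2. The pre-senescent and senescent columns were highest in both assays. MMP3 had the widest RNA range of the 10 genes, 50.5-fold, but the controls alone spanned 9.20-fold. No step between neighbours in its order exceeded that, which the steps lying between the controls could not do.

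MMP10, stromelysin-2, is the closest relative of MMP3. Its RNA was at the floor of 1 in both proliferating columns and in quiescence, at 1.67 in pre-senescence, at 9.81 in senescence and at 6.52 in the column labelled transformed. Its Ribo-Seq level was over the floor in all columns, at 18.2 in run 1 proliferation, 6.17 in quiescence, 108 in pre-senescence, 3.05 in run 2 proliferation, 42.1 in senescence and 17.5 in the column labelled transformed. The assays did not rank the columns alike, since pre-senescence had the highest Ribo-Seq level with almost no RNA. The ratio of ribosome-protected fragments to RNA was 64.9 there, the fifth highest of all transcripts over the floor in that column. As a share of MMP3, the MMP10 Ribo-Seq level stayed between 0.944% and 2.56% in the 6 columns, whereas its RNA share ran from 0.0762% to 3.24%. MMP3 and MMP10 are similar in sequence and only unique alignments were kept, so MMP10 levels are uncertain. Whether MMP3 fragments were counted as MMP10 was not tested.

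**Figure D1:**
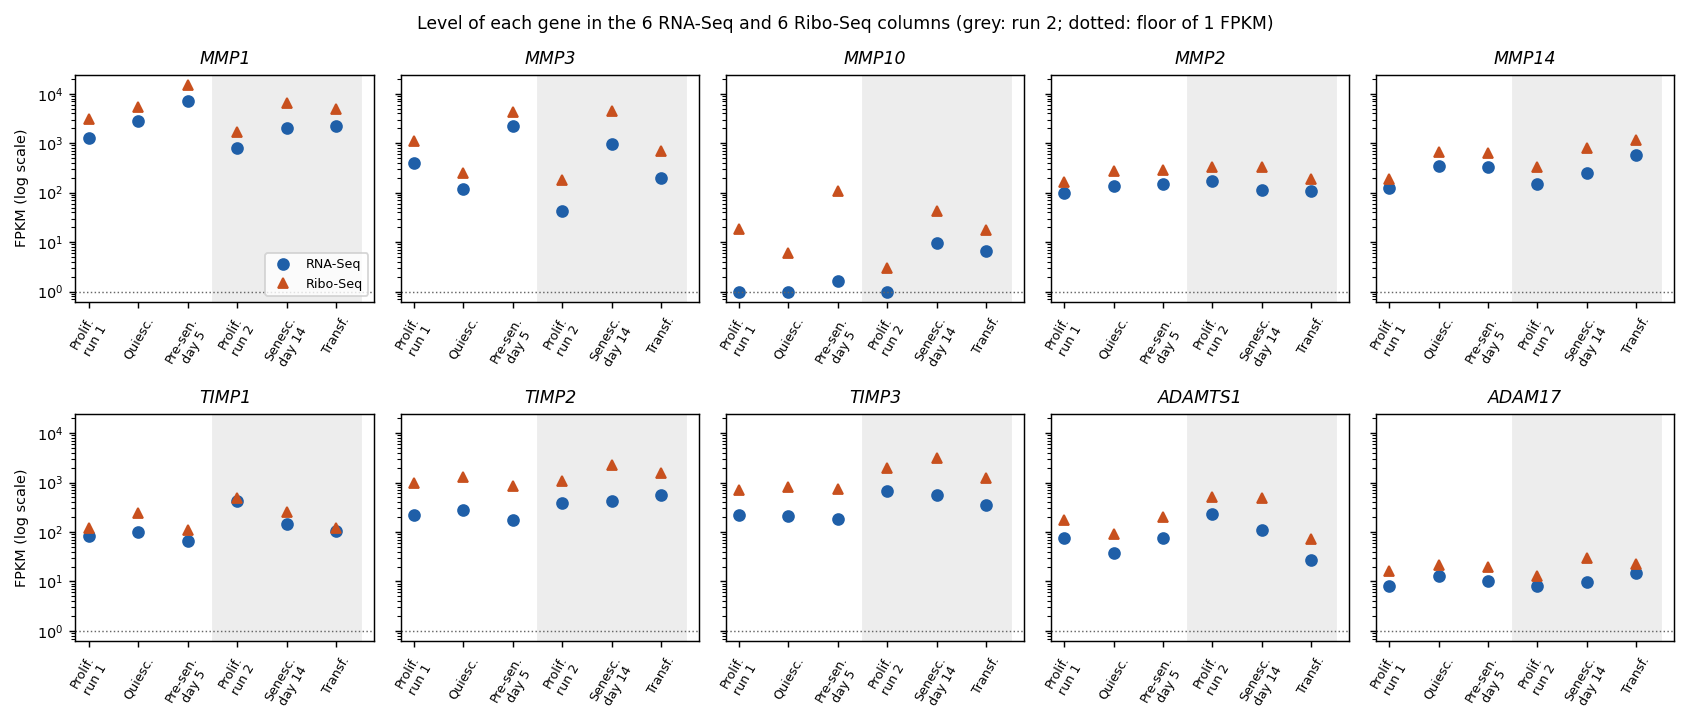
FPKM on a log axis of each of the 10 genes in the 6 RNA-Seq columns (circles) and 6 Ribo-Seq columns (triangles), with run 2 shaded and the floor of 1 dotted; each point is 1 deposited column and has no error bar. MMP1 peaks in pre-senescence at 7186 (RNA) and 15123 (Ribo-Seq), and MMP10 RNA sits at the floor in 3 columns.

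MMP14 (MT1-MMP) is a membrane-anchored collagenase that activates pro-MMP2, together with TIMP2. Its RNA level was 122 FPKM in run 1 proliferation, 348 in quiescence, 324 in pre-senescence, 148 in run 2 proliferation, 249 in senescence and 583 in the column labelled transformed. Its Ribo-Seq level was 189, 677 and 647 in run 1 and 336, 789 and 1145 in run 2. MMP14 was lowest in both proliferating columns in both assays, and the controls differed by only 1.21-fold in RNA. MMP2, gelatinase A, varied least of the 5 MMPs. Its RNA level ran from 101 in run 1 proliferation to 173 in run 2 proliferation, with the 4 other conditions (109 to 148) between the controls. Its Ribo-Seq level ran from 162 to 335, again with the controls at both ends.

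TIMP1, which inhibits most secreted MMPs, had an RNA level of 81.1 FPKM in run 1 proliferation, 102 in quiescence, 64.6 in pre-senescence, 430 in run 2 proliferation, 144 in senescence and 103 in the column labelled transformed. Its Ribo-Seq levels were 118, 243 and 110 in run 1 and 492, 249 and 119 in run 2. The run 2 control stood above the 5 other columns in both assays, and these 5 spanned 64.6 to 144 in RNA. TIMP2, which besides inhibiting MMPs bridges MMP14 and pro-MMP2, ranged from 172 in pre-senescence to 552 in the column labelled transformed in RNA, and from 862 in pre-senescence to 2220 in senescence in Ribo-Seq. TIMP3, which binds to the matrix and also inhibits ADAM17 and ADAMTS enzymes, had RNA levels of 216, 210 and 183 in the 3 columns of run 1 and of 673, 551 and 355 in run 2 proliferation, senescence and the column labelled transformed. Its Ribo-Seq levels were 702, 824 and 742 in run 1 and 1941, 3143 and 1247 in run 2. For TIMP3 the columns fell apart by run in both assays, without overlap.

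ADAMTS1 cleaves the proteoglycans aggrecan and versican. Its RNA level was 76.2 FPKM in run 1 proliferation, 38.3 in quiescence, 77.0 in pre-senescence, 229 in run 2 proliferation, 111 in senescence and 27.6 in the column labelled transformed. Its Ribo-Seq level was 177, 92.4 and 199 in run 1 and 519, 494 and 71.3 in run 2. The column labelled transformed was the lowest and quiescence the second lowest in both assays. ADAM17, the sheddase that releases TNF and EGF receptor ligands from the cell surface, was low throughout, between 7.95 and 15.1 in RNA and between 12.7 and 29.5 in Ribo-Seq. Both controls were its lowest columns in both assays, and their RNA levels differed by 1.02-fold.

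The 2 proliferating columns differed past 2-fold in 4 of 9 members in RNA, 3 higher and 1 lower in run 2, against 4.93% higher and 3.05% lower of 9521 transcripts tested. MMP3 was 9.20-fold lower in run 2 (the fourth lowest of all transcripts), and TIMP1 was 5.30-fold and TIMP3 3.11-fold higher, and ADAMTS1 was higher by 1.59 on the log2 scale. In Ribo-Seq 6 of 10 members differed past 2-fold, 4 higher (10.5% of all) and 2 lower (8.37%), which added MMP10 (5.97-fold lower) and MMP2 (2.06-fold higher). Sequencer run, library layout and culture cannot be told apart in this difference. When the levels of each gene were put in order, 73 of 88 steps between neighbours were no larger than the fold between the controls of that gene. A step that lies between the controls in the order cannot exceed that fold, and every step of MMP2 was of this kind. The share over all transcripts is not given, so this count does not test the conditions. The 15 larger steps were in MMP1, MMP14, TIMP2 and ADAM17.

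**Figure D2:**
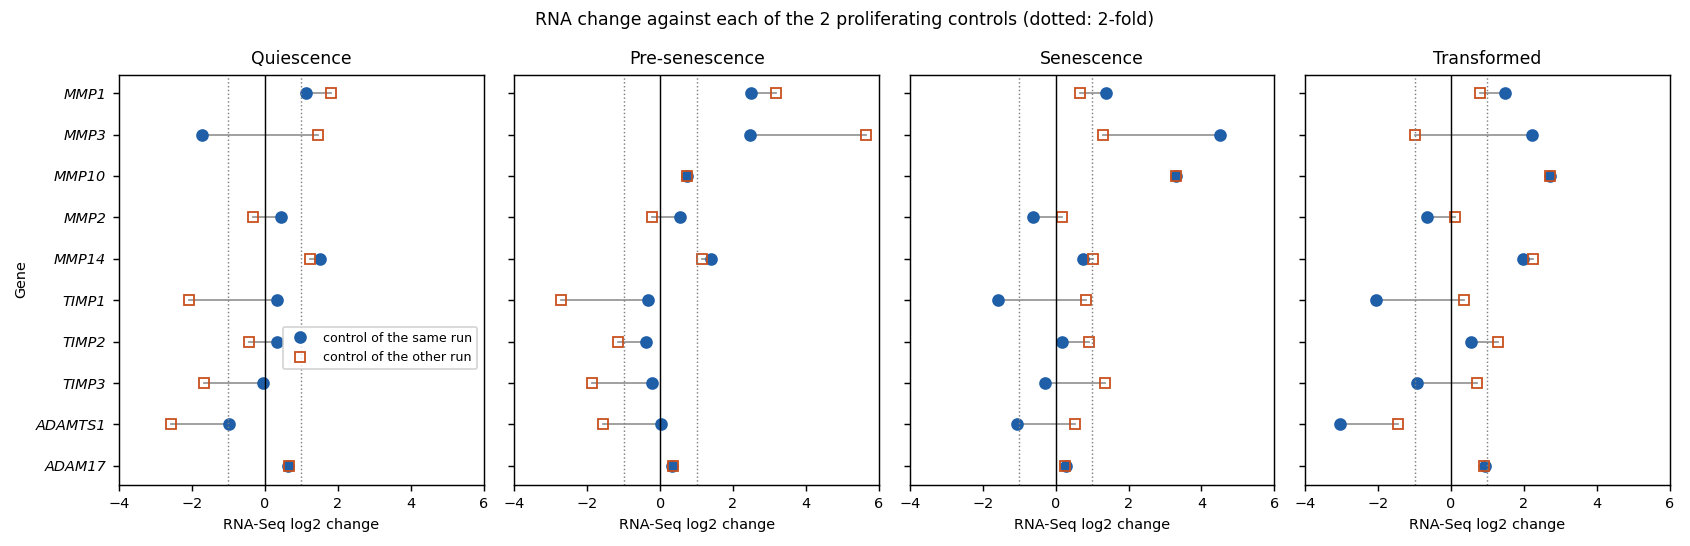
RNA-Seq log2 change of each gene in the 4 conditions against the control of the same run (filled circles) and of the other run (open squares), joined by a line, with 2-fold dotted; MMP10 has no value in quiescence because it is at the floor. MMP14 keeps nearly the same change against both controls, whereas MMP3 in the transformed column moves from 2.22 to -0.99 and TIMP1 from -2.06 to 0.35.

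In quiescence, compared with proliferation of run 1, MMP14 and MMP1 were higher and MMP3 was lower. MMP14 was 2.84-fold higher in RNA and 3.59-fold in Ribo-Seq, and MMP1 2.18-fold and 1.67-fold. MMP3 was 3.32-fold lower in RNA and 4.41-fold lower in Ribo-Seq, the direction of MMP10 in Ribo-Seq (2.95-fold lower). In RNA 2 of 9 members were called higher (4.11% of 9473 transcripts) and 1 lower (2.43%), and in Ribo-Seq 2 of 10 were higher (9.31%) and 2 lower (8.20%), with TIMP1 (2.06-fold) as the second one higher. ADAMTS1 missed the threshold at 1.99-fold lower in RNA. Against the other control MMP1 and MMP14 remained past 2-fold in RNA, which 2.64% of transcripts did, and MMP14 in Ribo-Seq (6.68%), while MMP3 turned to 1.47 (RNA) and 0.50 (Ribo-Seq) on the log2 scale, MMP10 to 1.02 and TIMP1 to -1.02 in Ribo-Seq.

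At 5 days after RAS induction MMP1, MMP3 and the membrane protease MMP14 were higher, and the inhibitors were near their control levels. MMP10 was called higher in Ribo-Seq alone. MMP1 was 5.57-fold higher in RNA and 4.79-fold in Ribo-Seq, and MMP3 5.49-fold and 3.86-fold. They were 20th and 21st highest of 9447 RNA changes. MMP14 was 2.65-fold and 3.43-fold higher, and MMP10 was 5.94-fold higher in Ribo-Seq. MMP10 RNA was 1.67 FPKM, with the control at the floor, and was not called. TIMP1, TIMP2 and TIMP3 stayed within 1.31-fold of run 1 proliferation in RNA and within 1.15-fold in Ribo-Seq, MMP2 was 1.47-fold and 1.79-fold higher, and ADAMTS1 stayed within 1.12-fold and ADAM17 within 1.25-fold. Called were 3 of 10 members in RNA, all higher, against 1.82% of transcripts, and 4 in Ribo-Seq, against 7.31%. None was called lower, against 2.05% and 10.6%. MMP1, MMP3 and MMP14 in RNA (2.60% of all transcripts) and MMP1, MMP3 and MMP10 in Ribo-Seq (9.46%) were past 2-fold against both controls. Against the run 2 control MMP3 was at 5.66 (RNA) and 4.58 (Ribo-Seq) on the log2 scale, and MMP14 lost its Ribo-Seq call at 0.95. The inhibitors then had log2 RNA values of -2.73 (TIMP1), -1.15 (TIMP2) and -1.88 (TIMP3).

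In full senescence, 14 days after induction and compared with proliferation of run 2, MMP3 and MMP10 had the largest changes of the 10 genes, and TIMP1 and ADAMTS1 were lower in RNA. MMP3 was 22.6-fold higher in RNA, 9th of 9560 transcripts, and higher by 4.64 on the log2 scale in Ribo-Seq, 12th of 9544. MMP10 was at least 9.81-fold higher in RNA, since the control was at the floor, and 13.8-fold in Ribo-Seq. MMP1 was 2.59-fold and 3.96-fold higher. TIMP1 was 2.98-fold and ADAMTS1 2.06-fold lower in RNA.

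In RNA 3 of 10 members were called higher (7.19% of transcripts) and 2 lower (13.2%). In Ribo-Seq 6 were called higher (11.2%) and 0 lower (16.8%), with MMP14 (2.35-fold), ADAM17 (2.32-fold) and TIMP2 (2.02-fold) added to the first 3. TIMP1 had a Ribo-Seq level 1.98-fold below the control, and ADAMTS1 was level with it (1.05-fold). MMP3 and MMP10 in RNA (15.8% of all) and MMP1, MMP3, MMP10, MMP14 and TIMP2 in Ribo-Seq (21.0%) were past 2-fold against both controls. Against the run 1 control, MMP3 was smaller at 1.30 (RNA) and 2.01 (Ribo-Seq) on the log2 scale, MMP10 was at 1.21 in Ribo-Seq, and MMP1 lost its call in RNA at 0.68. The log2 RNA changes of TIMP1 and ADAMTS1 were then 0.83 and 0.54 in place of -1.57 and -1.05. If the 2 Ribo-Seq columns with crossed labels were exchanged, each Ribo-Seq change here would have the opposite sign, MMP3 at -4.64 and MMP1 at -1.99 included. In the checks of labels above, each of these columns was closer to the RNA column of its title.

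In the column labelled transformed, again against run 2 proliferation, the 3 MMPs of the chromosome 11 cluster and MMP14 were higher, and TIMP1 and ADAMTS1 lower, in both assays. MMP14 was 3.95-fold higher in RNA and 3.41-fold in Ribo-Seq, and MMP1 2.81-fold and 3.03-fold. MMP3 was 4.65-fold and 3.84-fold higher, and MMP10 at least 6.52-fold and 5.74-fold. ADAMTS1 was 8.28-fold lower in RNA, 50th lowest of 9593 transcripts, and 7.28-fold in Ribo-Seq, and TIMP1 was 4.16-fold and 4.15-fold lower. In each assay 4 of 10 members were called higher and 2 lower, against 4.97% and 5.39% of transcripts in RNA and 5.34% and 7.44% in Ribo-Seq. MMP10, MMP14 and ADAMTS1 in RNA (5.69% of all) and MMP14 and ADAMTS1 in Ribo-Seq (6.96%) were past 2-fold against both controls. Against the run 1 control MMP1 lost its call, at 0.80 (RNA) and 0.67 (Ribo-Seq) on the log2 scale, and MMP10 was at -0.057 in Ribo-Seq. MMP3 was then at -0.99 (RNA) and -0.69 (Ribo-Seq), ADAMTS1 at -1.46 and -1.31, and TIMP1 at 0.35 and 0.0057. With the crossed Ribo-Seq columns exchanged, the log2 Ribo-Seq changes of MMP1, MMP3 and MMP10 would be -0.39, -2.70 and -1.26.

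**Figure D3:**
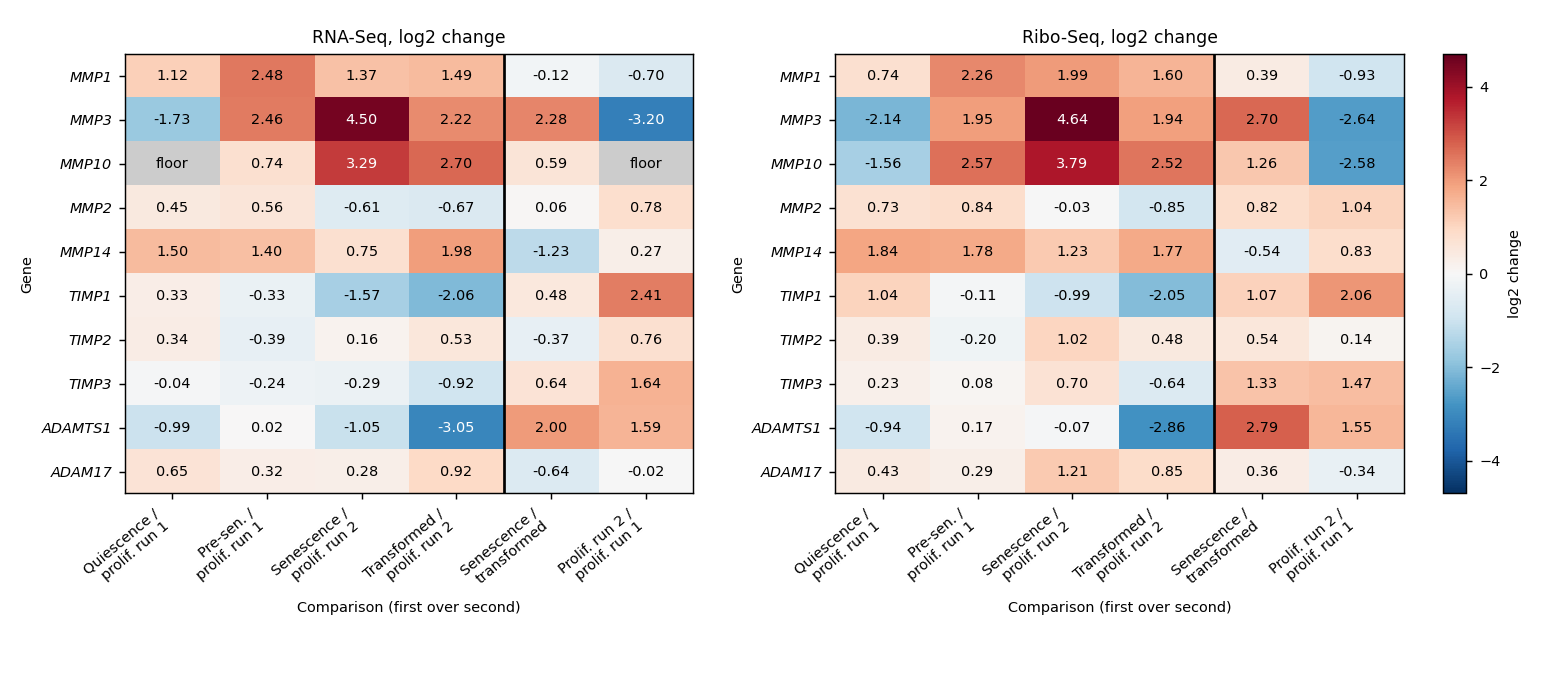
Log2 change of each gene in RNA-Seq (left) and Ribo-Seq (right) for the 6 comparisons named under the columns, red for higher in the first and blue for lower, with the value printed in each cell and grey where both columns are at the floor; the line separates changes against the same-run control from the others. MMP3 in senescence has the largest values, 4.50 and 4.64, and the last column shows that the controls differ most in MMP3 and TIMP1 in RNA and in MMP3 and MMP10 in Ribo-Seq.

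Senescent cells and those labelled transformed were both given RASG12V and were sequenced in the same run, so they can be set side by side without the control. MMP3 (4.87-fold) and ADAMTS1 (4.01-fold) were higher in senescence in RNA and MMP14 was 2.34-fold higher in the column labelled transformed. MMP1 differed by 1.09-fold and MMP2 by 1.04-fold. The RNA calls were 2 of 10 higher in senescence (8.19% of transcripts) and 1 lower (15.3%). In Ribo-Seq 5 of 10 were called higher in senescence (12.8%) and 0 lower (17.5%), namely ADAMTS1 (6.93-fold), MMP3 (6.51-fold), TIMP3 (2.52-fold), MMP10 (2.40-fold) and TIMP1 (2.09-fold). With the Ribo-Seq columns exchanged MMP3 would be at -1.94 and MMP10 at -2.52 on the log2 scale, and ADAMTS1 at 2.86.

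Translation efficiency (TE) was taken as the log2 ratio of the Ribo-Seq to the RNA level. Most members had a higher TE than the median transcript in each column, which lay between 0.26 and 0.43. TIMP2 ranged from 1.47 to 2.38 and TIMP3 from 1.53 to 2.51, above 87.1% and 88.0% of transcripts or more. TIMP1 had the lowest TE of the 9 members over the floor in 5 of the 6 columns, down to 0.20 in the run 2 control and in the column labelled transformed, below the median of all transcripts there. The RNA level counts the whole transcript and the Ribo-Seq level only the coding sequence, so TE can be compared between columns of a gene more directly than between genes.

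No TE change of a member reached 2-fold in any of the comparisons, against 7.06% of transcripts either way in quiescence, 13.2% in pre-senescence, 8.55% in senescence, 2.69% in the transformed comparison, 4.97% between senescence and the transformed state and 8.51% between the controls. The senescent column nevertheless stood out in direction. TE was higher there than in the run 2 control for 9 of 9 members, against 47.4% of all transcripts. The changes ran from 0.14 (MMP3) to 0.98 (TIMP3) with a median of 0.61, where the median over all transcripts was -0.04. ADAMTS1 (0.97), ADAM17 (0.93) and TIMP2 (0.85) were next to TIMP3. TE in senescence also exceeded that of the run 1 control and of the column labelled transformed in 9 of 9 members, which held for 30.1% of 8414 transcripts over the floor throughout. Senescence gave the highest TE of the 6 columns in 8 of 9 members, against 23.8% of transcripts, and TIMP1 had its highest TE in quiescence. The direction was not particular to the members. Against the run 2 control TE was also higher in 5 of 5 other ADAMs tested (median 0.61). The same held for 6 of 6 activators and inducers of pro-enzymes (0.48), but for only 1 of 7 AP-1 factors (-0.38).

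A TE change is the gap between the changes of the assays. ADAM17 was 1.22-fold higher in RNA and 2.32-fold in Ribo-Seq, TIMP2 1.12-fold and 2.02-fold, and ADAMTS1 was 2.06-fold lower in RNA and level in Ribo-Seq. It rests on a single Ribo-Seq sample, which is also one of the pair with crossed labels. With the pair exchanged the TE changes in senescence would run from -9.15 (MMP3) to 2.56 (TIMP1). Past 2-fold would then be 7 of 9 members, a count given without the share of all transcripts. In the transformed comparison the members' TE changes lay between -0.27 and 0.29, with a median of -0.06 beside -0.07 for all transcripts.

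The proteases and their inhibitors were also summed, a choice made after the values were seen. The summed RNA level of the 5 MMPs was 3.66 times that of the 3 TIMPs in run 1 proliferation, 5.72 in quiescence and 23.5 in pre-senescence, and 0.782 in run 2 proliferation, 3.04 in senescence and 3.11 in the column labelled transformed. The Ribo-Seq ratios were 2.56, 2.74 and 11.9 in run 1 and 0.712, 2.17 and 2.44 in run 2. Pre-senescence was highest and run 2 proliferation lowest in both assays. MMP1 made up 53.9% to 82.3% of the MMP sum. Without MMP1 the RNA ratios were 1.19, 1.02 and 6.35 in run 1 and 0.246, 1.21 and 0.891 in run 2, so the same columns stayed at the ends. The run 2 control was thus below every other column, the run 1 control included.

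Other genes of the same pathways were counted from lists of their members. Over all transcripts the median log2 RNA change was -0.02 in senescence and 0.09 in the column labelled transformed, and the shares called in each direction are those given for the members. These shares hold against the same-run control, and none is given for list counts against the other control. Of 18 further MMPs 5 were in the table, all at low levels, and MMP17, a GPI-anchored MMP, was the highest of them at 31.1 FPKM in quiescence (14.8 in its control). Of 8 activators and inducers of pro-enzymes 7 were present, and 2 of 6 tested were called higher and 0 lower in RNA both in senescence and in the column labelled transformed. PLAU, the urokinase that generates plasmin, had RNA levels of 111 in run 1 proliferation, 162 in quiescence and 332 in pre-senescence, and 70.3 in run 2 proliferation, 259 in senescence and 1564 in the column labelled transformed. PLAT, the tissue plasminogen activator, reached 449 in senescence and 499 in the column labelled transformed from 210 in their control.

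Among other inhibitors and clearance genes, 4 of 6 tested were called lower in senescence and 0 higher in RNA, with a median log2 change of -1.85, and 2 of 6 lower in the column labelled transformed. Against run 1 proliferation 4 of 6 were lower and 1 higher (RECK) in senescence, and 1 of 6 lower in the column labelled transformed. RECK, a membrane-anchored MMP inhibitor, was 42.3 in run 2 proliferation, 18.4 in senescence and 8.31 in the column labelled transformed, but only 7.84 in run 1 proliferation. THBS1, a matricellular protein, was 805 in run 2 proliferation and 91.8 in senescence, and PCOLCE, which enhances processing of procollagen, 255 and 40.4. Both were also lower in senescence than in run 1 proliferation (415 and 183).

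Matrix proteins that these enzymes cleave were mostly lower in senescence than in run 2 proliferation. Of 10 tested, 8 were called lower and 1 higher in RNA (median -1.93) against run 2 proliferation. Against run 1 proliferation 5 were called lower and 1 higher (median -0.99), and COL1A2, which encodes the partner chain of COL1A1, was at 531 FPKM in senescence, above the run 1 control (384) and below the run 2 control (1611). In RNA against the same-run control, pre-senescence had 5 lower and 1 higher. The column labelled transformed had 3 and 1, and quiescence 2 and 1. Against the other control these were 7 and 1 in pre-senescence and 5 and 1 in quiescence. The column labelled transformed then had 3 lower and 5 higher, and its median turned from -0.52 to 1.02. The Ribo-Seq counts differed. In quiescence 5 of 9 were higher and 0 lower against the same-run control, and 1 of 10 was higher and 4 lower against the other. In senescence 7 of 10 were lower and 1 higher in Ribo-Seq, and against run 1 proliferation 1 was lower and 2 higher. COL1A1, the main chain of fibrillar collagen, was 1328 FPKM in run 2 proliferation, 51.6 in senescence and 762 in the column labelled transformed, and 371, 345 and 150 in proliferation, quiescence and pre-senescence of run 1. DCN (decorin) was 164, 11.3 and 15.5 in run 2 and 27.6, 82.6 and 3.68 in run 1. Between the controls 7 of 10 of these genes were called higher in run 2 and 0 lower.

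The ADAM17 list, its partners and the surface proteins it sheds, had 3 of 9 called higher and 0 lower in RNA in senescence and 4 of 8 and 0 in the column labelled transformed. ICAM1, an adhesion receptor, was 18.9 in run 2 proliferation, 218 in senescence and 62.8 in the column labelled transformed. EREG, an EGF receptor ligand, was 8.24, 28.4 and 78.4 in the same columns and 23.3 in pre-senescence against 7.56 in its control. Of 5 other ADAMs, 0 were called higher and 1 lower in RNA in senescence (ADAM33, 12.2 to 2.70 FPKM), and of 7 other ADAMTSs 2 were higher and 3 lower. Against run 1 proliferation, senescence had in RNA 3 higher and 1 lower of the ADAM17 list, 1 and 1 of the ADAMs and 3 and 2 of 6 ADAMTSs. In Ribo-Seq against the same-run control, 2 ADAMs (ADAM9 and ADAM19) were higher and 1 lower in senescence. For the ADAMTSs 3 of 9 were higher and 2 lower there, and for the ADAM17 list 5 of 9 higher and 0 lower. ADAMTS19 was 2.62 in run 2 proliferation and 18.8 in senescence, and ADAMTS2, which removes the amino propeptide of procollagen, 26.5 and 3.40. Of 7 AP-1 factors, 1 was called higher and 1 lower in RNA in senescence, and 1 higher and 2 lower in Ribo-Seq. ATF3 was 10.4 in senescence and 2.29 in its control, and FOS 2.82 and 5.83. In TE the median change in senescence was above 0 for 7 of the 8 lists, from 0.37 for the ADAM17 list to 0.84 for the ADAMTSs, and -0.38 for the AP-1 factors.

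The genes whose 8 changes correlated best with those of a member (Pearson) were found among 3986 genes. The changes were 4 conditions in RNA-Seq and Ribo-Seq, each against the same-run control. The correlation leaves out the mean and the size of the changes, so their signs can differ. In quiescence RNA, CD274 was at -1.30 and MMP1 at 1.12 on the log2 scale. The 8 changes share 2 controls and are not independent, so these are descriptions. For MMP3 they were PPT1, SERPINB7 and GLIPR1 (r = 0.967, 0.967 and 0.966), and for MMP1 DNER, CD274 and INHBA (0.929, 0.906 and 0.894). For TIMP1 they were BICC1, FAM65B and MYO1D (0.993, 0.991 and 0.985), and for TIMP3 SCD5, GALNT2 and LRBA (0.969, 0.945 and 0.938). Some of these correlations include changes of exactly 0, the value given when both columns are at the floor. These were DNER RNA in senescence and in the column labelled transformed, INHBA RNA in quiescence, and FAM65B in pre-senescence in both assays. The largest DNER change was -0.69, in quiescence Ribo-Seq.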

How the data were processed

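RNA-Seq and Ribo-Seq were run on BJ fibroblasts (17 samples). Per the methods of the study and the labels, the authors aligned reads with Bowtie, keeping unique alignments, to 1 protein-coding transcript a gene (Ensembl; the processing notes name hg19), and deposited FPKM, over the whole transcript for RNA and the coding sequence for Ribo-Seq, with values under 1 set to 1. Of the 12 columns 5 stand for 2 samples each and are the authors' values; whether reads were pooled or values averaged is not stated. FPKM was used as deposited.

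Each condition was compared, as in the study, with the proliferating column of its own run (log2 ratio, no pseudocount). A transcript was tested if over the floor in either column, and for TE if over the floor in all values; past 2-fold was called. Functions were tested on simulated data. Alternatives were another pseudocount, median centring, filters, a 1.5-fold threshold, a sliding cut, the other control, and exchange of the crossed Ribo-Seq columns. All 10 members are named; from each list, up to 4 genes over 5 FPKM with the largest RNA change in any condition. One check of the constructs is not reported here. Members and lists were chosen with earlier results of these data known. Versions: Python 3.11.15, pandas 2.3.3, numpy 2.4.6, matplotlib 3.10.9.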

Additional observations from a re-analysis of the deposited data

How the results depend on the processing

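No paired analysis was possible because the table has no replicate columns, so neither the replicate number as a block nor leaving out replicates was run. The table holds no read counts, so no counting error is given for low values such as those of MMP10. In all of this the cause was not tested.

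Adding 1 FPKM and a filter of 5 FPKM left all 18 counts of members past 2-fold within 1.5 times. With a 1.5-fold threshold the counts went from 3 to 5 (quiescence, RNA), 4 to 7 (quiescence, Ribo-Seq), 3 to 6 (senescence against transformed, RNA) and 4 to 7 (controls, RNA), and for TE from 0 to 6 (senescence), 7 (senescence against transformed), 1 (quiescence) and 1 (controls). Over all transcripts the calls in quiescence went from 619 to 1884 of 9473 (RNA), 1662 to 3957 of 9491 (Ribo-Seq) and 640 to 2211 of 9061 (TE). For other comparisons the counts over all transcripts are not given, so the member counts only describe the settings. Median centring gave 2 TE calls in senescence in place of 0. With no filter there was 1 TE call in place of 0 in quiescence, in pre-senescence and between the controls, and the sliding cut gave 1 in quiescence and 1 in senescence against transformed, with 3 in place of 6 Ribo-Seq calls in senescence and 2 in place of 5 against transformed.

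A change counted as reversed only if it was at least 2-fold in the main setting and then changed sign. Against the control of the other run, 11 of 115 member changes reversed in this sense. Smaller changes that changed sign are not among the 11, such as TIMP1 in quiescence RNA (0.33 to -2.08) and TIMP3 in senescence RNA (-0.29 to 1.35). The counts became 6 for 3 (quiescence, RNA), 7 for 3 (pre-senescence, RNA), 2 for 6 (transformed, Ribo-Seq) and 1 for 0 in TE in quiescence, pre-senescence and senescence. Over all transcripts, quiescence had 832 of 9552 called for 619 of 9473 in RNA, and 847 of 9150 for 640 of 9061 in TE. The counts over all transcripts are not given for the other comparisons. Reversed log2 values were, in RNA, MMP3 from -1.73 to 1.47 in quiescence and from 2.22 to -0.99 in transformed, TIMP1 from -1.57 to 0.83 in senescence and from -2.06 to 0.35 in transformed, and ADAMTS1 from -1.05 to 0.54 in senescence. In Ribo-Seq they were, in quiescence, MMP3 from -2.14 to 0.50, MMP10 from -1.56 to 1.02 and TIMP1 from 1.04 to -1.02, and in transformed, MMP3 from 1.94 to -0.69, MMP10 from 2.52 to -0.0565 and TIMP1 from -2.05 to 0.0057.

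With the crossed Ribo-Seq columns exchanged, 13 of 77 changes reversed by the same rule, which leaves out changes under 2-fold. In the checks of labels each of these columns was closer to the RNA column of its title, which is how they were used. TE calls went from 0 to 7 (senescence), 5 (transformed), 4 (senescence against transformed) and 4 (controls). The counts over all transcripts after the exchange are not given. Ribo-Seq changes in senescence became -1.99 (MMP1), -4.64 (MMP3), -3.79 (MMP10), -1.23 (MMP14), -1.02 (TIMP2) and -1.21 (ADAM17). In transformed they became -0.39 (MMP1), -2.70 (MMP3) and -1.26 (MMP10), in senescence against transformed -1.94 (MMP3) and -2.52 (MMP10), and between the controls 2.01 (MMP3) and 1.21 (MMP10).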
